A study of Homo sapiens with 24 samples.

Results

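The extracellular matrix genes described here are those whose symbols name a collagen chain (COL), a laminin chain (LAMA, LAMB, LAMC), a fibulin (FBLN), a fibrillin (FBN), a thrombospondin (THBS) or a SPOCK proteoglycan, together with FN1, SPARC, TNC, POSTN, BGN, DCN and LUM. They were chosen by symbol, without use of their values, and comprise 73 genes measured by 121 of the 48803 probes of the arrays. The arrays hold 4 groups of 6 biological replicates of human prostate lines. PNT1a, an immortalised prostate epithelial line, was transfected stably with HIP1 or with empty vector and kept in 0.8 mg/ml G418, the drug that selects for the construct. LNCaP, derived from a prostate cancer, took HIP1 or empty vector by transient transfection and was harvested on day 4. All 4 groups grew in the same serum-containing medium. HIP1 is an endocytic adaptor protein that binds clathrin and actin, and the series sets its overexpression against the vector in each line. Whether a stable PNT1a line is a clone or a pool, and how the 6 replicates of a group were kept apart, are not stated in the labels, and the p-values measure the spread between these arrays, which may be in part technical.

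The extracellular matrix of an epithelium has a thin basement membrane under the cells, built on networks of laminin trimers and type IV collagen, and a stroma beneath it, built on fibrillar collagens. Laminin trimers hold an alpha, a beta and a gamma chain, and collagens assemble from 3 alpha chains that may be products of different genes. Fibulins, fibrillins, thrombospondins, tenascin and small proteoglycans bind these networks and link them to each other, to growth factors and to cells. Epithelial cells make basement membrane chains, while the bulk of fibrillar collagen in a prostate comes from its stromal cells.

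Values are deposited log2 intensities, and differences are HIP1-labelled minus vector on that scale unless stated. A value of 6.97 (the mode of all values plus 3 SDs) was taken as the background level, and probes entered the test of a line if 6 or more of its 12 arrays exceeded it. Of the 121 matrix probes, 42 (34 genes) passed in PNT1a and 14 (13 genes) in LNCaP, with 13 probes in both. The remaining 78 probes passed in neither line and cover all probes of 39 genes. Those 39 include the stromal collagen chains COL1A2 and COL3A1, with group means between 6.29 and 6.50, and the small proteoglycans DCN and LUM, which bind collagen fibrils. They also include FN1, which encodes fibronectin, an adhesive glycoprotein: its 3 probes had group means between 6.31 and 6.51 in all 4 groups. COL6A2 and COL6A3, partners of COL6A1 in type VI collagen, were likewise not kept. By family, the genes kept in neither line were 26 of 42 collagen chains, LAMA2 and LAMB4 of 10 laminin chains, FBLN7 of 4 fibulins, FBN1 and FBN3 of 3 fibrillins, THBS3 and THBS4 of 4 thrombospondins, SPOCK2 and SPOCK3 of 3 SPOCK genes, and FN1, POSTN, DCN and LUM. The collagens among them, beside the 4 already named, were COL2A1, COL4A3, COL4A4, COL4A6, COL5A3, COL6A5, COL6A6, COL9A1, COL9A3, COL10A1, COL11A1, COL11A2, COL14A1, COL15A1, COL19A1, COL20A1, COL21A1, COL22A1, COL23A1, COL24A1, COL25A1 and COL28A1. A probe below the level carries only a bound. COL6A2 and FBLN7 each had 1 probe whose PNT1a HIP1-labelled mean exceeded the level although it did so on too few arrays to be tested. The other COL6A2 probes had means below it, and FBLN7 had no other probe.

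The series as a whole sets limits on the PNT1a values. The single HIP1 probe ran from 7.10 to 8.09 on HIP1-labelled and from 7.30 to 7.86 on vector PNT1a arrays, and from 7.11 to 7.52 and from 7.19 to 7.59 on the HIP1-labelled and vector arrays of LNCaP (adjusted p = 0.703 and 0.451). It therefore did not differ detectably, and since it is not stated whether the probe reads the cloned insert, the labels could not be checked by it. The HIP1-labelled and vector PNT1a arrays numbered 6 stood apart: they correlated with their own group by a mean of 0.919 and 0.942, where every other PNT1a array reached 0.973 or more. Clustered on their deviations from the group means, PNT1a arrays fell into 3 sets (cluster 1 with HIP1-labelled arrays 1, 2 and 5 and vector arrays 3, 4 and 5, cluster 2 with HIP1-labelled arrays 3 and 4 and vector arrays 1 and 2, and cluster 3 with both arrays 6), each holding both groups. The epithelial markers KRT8, KRT18 and EPCAM were above the level in both lines, whereas CDH1 was above it in LNCaP and on 0 PNT1a arrays, and KRT5, KRT14 and KRT19 were above it on 0 arrays of either line.

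In PNT1a, 20 of the 34 matrix genes above background differed between HIP1-labelled and vector arrays, 13 higher and 7 lower. Higher were the proteoglycan SPOCK1, FBLN2 and FBLN5, THBS2, the laminin chains LAMA4, LAMC3 and LAMC1, and 6 collagen chains. Lower were BGN, the laminin chains LAMA5 and LAMA1, and the collagen chains COL5A1, COL4A5, COL18A1 and COL8A2. By probe, 24 of 42 were called (17 higher, 7 lower), where limma called 27.5% of all 12221 probes tested in the line, 14.2% higher and 13.4% lower. The median difference of the 42 matrix probes was 0.30, against 0.002 for all probes tested. FBLN2, THBS2 and LAMA4 passed the filter through the HIP1-labelled arrays alone, and COL4A5 through the vector arrays alone. The counts and the median thus include genes admitted by the group where they were high. In 12 of the 34 genes the HIP1-labelled and vector arrays did not overlap (8 above, 4 below, all of them called), where 15.4% of all probes tested showed no overlap. Left without both arrays 6, the line had 23 called matrix genes (13 higher and 10 lower), of which 19 were among the 20, while 45.1% of all probes tested were called.

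**Figure D1:**
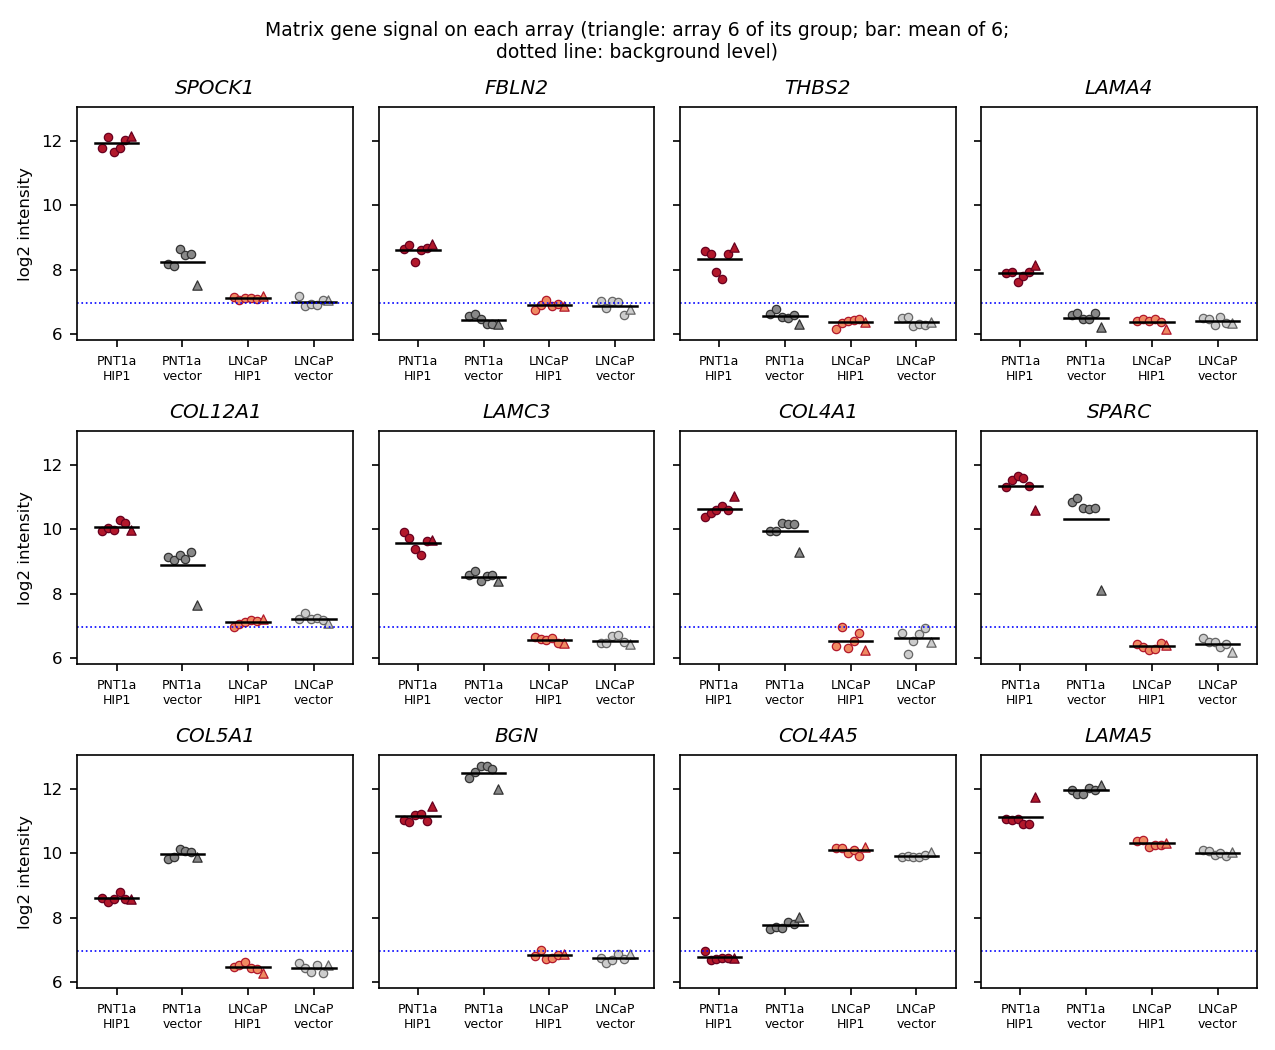
Deposited log2 intensity (vertical axis) of 11 matrix genes called in PNT1a and of SPARC in the 4 groups, HIP1-labelled left of vector for each line. Points are single arrays (triangles for array 6 of a group), bars are means of 6 arrays and the dotted line is the background level of 6.97; in PNT1a, SPOCK1 lies between 11.64 and 12.16 on HIP1-labelled arrays, above every vector array, while BGN and COL5A1 lie below every vector array.

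Type IV collagen, the network-forming collagen of basement membranes, changed in both directions. COL4A1 had a median of 10.60 (10.37 to 11.03) on HIP1-labelled arrays and of 10.06 (9.30 to 10.20) on vector arrays. All 6 HIP1-labelled arrays lay above all 6 vector arrays, and the difference was 0.68 ± 0.16 (SE; adjusted p = 0.00519). Within clusters 1 to 3 of the PNT1a arrays it was 0.30, 0.72 and 1.73. COL4A2, whose chain joins that of COL4A1 in the commonest type IV trimer, had a median of 8.71 (8.55 to 8.96) on HIP1-labelled arrays and of 8.36 (7.70 to 8.74) on vector arrays. The COL4A2 groups overlapped, and the difference was 0.42 ± 0.15 (adjusted p = 0.0465). That call was lost without any 1 of 9 arrays (HIP1-labelled 1 to 5 and vector 1, 2, 3 and 6), with adjusted p up to 0.0976. COL4A5, on the X chromosome and part of another type IV trimer, went the other way. Its median was 6.74 (6.67 to 6.96) on HIP1-labelled arrays, below the level on all 6, and 7.76 (7.65 to 8.01) on vector arrays. COL4A5 was therefore at least 1.76-fold lower with HIP1 (adjusted p = 1.10e-06). A second COL4A5 probe was above the level on 0 PNT1a arrays. The partners COL4A3, COL4A4 and COL4A6 were not above background in either line.

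COL4A1 and COL4A2 lie head to head on chromosome 13, and their promoter windows are shown because both genes were higher with HIP1. In RefSeq's GRCh38.p14 annotation their starts are 127 bases apart on opposite strands, and the windows, each from 250 bases before the start to 50 bases from it, share 226 bases. The COL4A1 window is chr13:110307108-110307407 on the minus strand and the COL4A2 window chr13:110307034-110307333 on the plus strand. Each is written 5′ to 3′ on its gene's strand, with capitals for matches, on either strand, to CCAAT, to GGGCGG, to TATAAA or to TGACTCA.
COL4A1: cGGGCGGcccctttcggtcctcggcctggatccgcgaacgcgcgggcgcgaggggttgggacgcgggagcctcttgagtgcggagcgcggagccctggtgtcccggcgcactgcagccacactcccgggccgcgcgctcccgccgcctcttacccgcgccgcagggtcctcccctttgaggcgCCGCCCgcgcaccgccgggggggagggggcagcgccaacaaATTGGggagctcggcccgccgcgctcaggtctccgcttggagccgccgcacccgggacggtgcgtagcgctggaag
COL4A2: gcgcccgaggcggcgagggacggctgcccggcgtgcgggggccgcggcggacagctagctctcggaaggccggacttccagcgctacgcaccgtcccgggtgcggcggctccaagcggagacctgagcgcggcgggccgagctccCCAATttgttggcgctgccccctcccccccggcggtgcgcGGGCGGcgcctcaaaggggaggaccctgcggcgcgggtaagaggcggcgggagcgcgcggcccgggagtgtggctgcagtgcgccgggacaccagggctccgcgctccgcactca
The CCAAT match (ATTGG in the COL4A1 orientation) and a GGGCGG match lie in the shared bases, so the windows hold the same 2 matches, and COL4A1 has a further GGGCGG at its far end. No TATAAA or TGACTCA is present in either. Of all 35116 promoter windows in the table, 34.6% hold CCAAT, 45.0% GGGCGG, 11.5% TATAAA and 4.95% TGACTCA.

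Among laminins, alpha and gamma chains were called in PNT1a, and no beta chain was called over all arrays. LAMA4, an alpha chain of mesenchymal and endothelial laminins, had a median of 7.91 (7.62 to 8.15) on HIP1-labelled arrays and of 6.53 (6.22 to 6.67) on vector arrays. It was thus below the level on every vector array and above it on every HIP1-labelled array, at least 1.89-fold higher (adjusted p = 5.57e-07). LAMC3, the gamma 3 chain, had a median of 9.64 (9.20 to 9.91) on HIP1-labelled arrays and of 8.56 (8.39 to 8.70) on vector arrays. Its groups did not overlap, and the difference was 1.05 ± 0.11 (adjusted p = 1.46e-05). LAMC1, the gamma 1 chain shared by most laminin trimers, had a median of 10.52 (10.27 to 10.69) on HIP1-labelled arrays and of 10.23 (9.91 to 10.47) on vector arrays. Its difference was 0.30 ± 0.10 with overlapping groups (adjusted p = 0.0469). It lost the call without any 1 of 10 arrays (HIP1-labelled 1, 2, 3, 5 and 6 and vector 1, 2, 3, 4 and 6; adjusted p up to 0.0987), and without both arrays 6 it was 0.20 (adjusted p = 0.0732).

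The alpha chains of epithelial and embryonic basement membranes were lower with HIP1. LAMA5, the main alpha chain of adult epithelial basement membranes, had a median of 11.03 (10.91 to 11.74) on HIP1-labelled arrays and of 11.96 (11.83 to 12.11) on vector arrays. The LAMA5 groups did not overlap although HIP1-labelled array 6 lay far above its group, and the difference was -0.84 ± 0.13 (adjusted p = 0.000306). LAMA1, best known from the embryo and a few adult epithelia, had a median of 8.41 (7.92 to 8.51) on HIP1-labelled arrays and of 8.85 (8.29 to 9.12) on vector arrays. The LAMA1 difference was -0.49 ± 0.15 (adjusted p = 0.0246), and the call was lost without any 1 of 4 arrays (HIP1-labelled 5 and vector 3, 4 and 5; adjusted p up to 0.0589). A second LAMA1 probe gave -0.32 (adjusted p = 0.157). The beta chains LAMB1 (-0.08) and LAMB3 (0.21) were not called. LAMB2, a beta chain of several adult basement membranes, was at -0.49 (adjusted p = 0.101) on all arrays and at -0.60 without both arrays 6 (adjusted p = 7.60e-05). LAMB2 on HIP1-labelled array 6 was 8.77, and on the other HIP1-labelled arrays 7.46 to 7.71.

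COL5A1 and COL5A2, which together make the type V collagen that nucleates collagen fibrils, gave unlike values. COL5A1 had a median of 8.59 (8.49 to 8.80) on HIP1-labelled arrays and of 9.96 (9.81 to 10.14) on vector arrays. Its groups did not overlap, with a difference of -1.36 ± 0.08 (adjusted p = 8.74e-08), which was -1.52, -1.14 and -1.29 in clusters 1 to 3. COL5A2 had a median of 11.49 (11.18 to 11.86) on HIP1-labelled arrays and of 11.17 (8.30 to 11.43) on vector arrays. Its difference of 0.77 was not called (95% interval -0.18 to 1.71, adjusted p = 0.225) and was 0.28 without both arrays 6 (adjusted p = 0.0617). The single low vector value, 8.30, was that of array 6. COL1A1, whose chain pairs with that of COL1A2 in type I collagen, was at -0.34 (adjusted p = 0.139) on all arrays and at -0.48 without both arrays 6 (adjusted p = 0.0124).

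The fibril-associated collagens COL12A1, COL16A1 and COL9A2 were higher with HIP1. COL12A1, the type XII collagen that decorates fibrils, had a median of 10.01 (9.94 to 10.27) on HIP1-labelled arrays and of 9.11 (7.66 to 9.29) on vector arrays. All HIP1-labelled values lay above all vector values, with a difference of 1.17 ± 0.23 (adjusted p = 0.00185) that was 0.93 without both arrays 6 (adjusted p = 3.17e-07). A second COL12A1 probe was below the level on all arrays. COL16A1, a fibril-associated collagen, had a median of 7.93 (7.68 to 8.13) on HIP1-labelled arrays and of 7.62 (7.44 to 7.86) on vector arrays. The COL16A1 groups overlapped, and the difference of 0.29 ± 0.10 (adjusted p = 0.0418) lost its call without any 1 of 8 arrays (HIP1-labelled 1, 3, 4 and 6 and vector 1, 3, 4 and 5; adjusted p up to 0.0943). COL9A2, a chain of cartilage-type collagen IX, had a median of 7.23 (7.02 to 7.65) on HIP1-labelled arrays and of 6.77 (6.45 to 7.07) on vector arrays, where 2 of 6 were above the level. It was at least 1.199-fold higher with HIP1 (adjusted p = 0.0145).

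The network collagens COL8A1 and COL8A2, chains of the type VIII collagen found beneath endothelia, moved in opposite directions. COL8A1 had a median of 10.90 (10.57 to 11.52) on HIP1-labelled arrays and of 10.36 (9.33 to 10.70) on vector arrays. Its difference was 0.68 ± 0.22 (adjusted p = 0.0315), but in clusters 1 to 3 it was 0.64, -0.01 and 2.20, and without both arrays 6 it was 0.38 (adjusted p = 0.011). The COL8A1 call was also lost without any 1 of 4 arrays (HIP1-labelled 1 and 2 and vector 3 and 4; adjusted p up to 0.0641). COL8A1 was the 1 called matrix gene of 20 that did not keep its sign in all 3 clusters. COL8A2 had a median of 7.34 (7.15 to 7.50) on HIP1-labelled arrays and of 7.63 (7.49 to 7.73) on vector arrays. It gave a difference of -0.28 ± 0.08 (adjusted p = 0.0199) with overlapping groups, and lost its call with both lines in 1 fit with array weights (adjusted p = 0.131). COL18A1, a basement membrane collagen whose cleaved end is endostatin, had a median of 7.94 (7.73 to 8.03) on HIP1-labelled arrays and of 8.20 (7.95 to 8.32) on vector arrays. The COL18A1 difference was -0.29 ± 0.09 (adjusted p = 0.0265), lost without any 1 of 4 arrays (HIP1-labelled 1 and 2 and vector 3 and 5; adjusted p up to 0.0642). COL6A1, COL7A1 (the anchoring fibril collagen of stratified epithelia) and COL13A1 were not called, with differences from -0.14 to 0.01. COL27A1, below the level by its mean on HIP1-labelled arrays, was at least 1.06-fold lower and not called (adjusted p = 0.0785), though it was without both arrays 6 (adjusted p = 0.0134).

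SPOCK1, a secreted calcium-binding proteoglycan also called testican, had the largest difference of the matrix genes. Its values were 11.90 (11.64 to 12.16) by median on HIP1-labelled arrays and 8.31 (7.52 to 8.64) on vector arrays. The groups lay far apart, and the fitted difference was 3.68 ± 0.17, a fold of 12.8 (adjusted p = 5.27e-09). In clusters 1 to 3 it was 3.45, 3.56 and 4.63. FBLN2, a fibulin of basement membranes and elastic fibres, had a median of 8.65 (8.23 to 8.80) on HIP1-labelled arrays and of 6.39 (6.30 to 6.61) on vector arrays. It was below the level on all vector arrays, and so at least 3.13-fold higher with HIP1 (adjusted p = 7.15e-09). A second FBLN2 probe, at 6.13 to 6.56 on vector arrays, gave at least 3.04-fold (adjusted p = 2.46e-08). FBLN5, which helps elastic fibres form, had a median of 8.30 (8.12 to 9.07) on HIP1-labelled arrays and of 7.94 (7.63 to 8.04) on vector arrays. The FBLN5 groups did not overlap, and the difference was 0.53 ± 0.15 (adjusted p = 0.0156) on that probe and 0.30 on its second (adjusted p = 0.0109).

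THBS2, a matricellular inhibitor of angiogenesis, had a median of 8.49 (7.70 to 8.70) on HIP1-labelled arrays and of 6.56 (6.30 to 6.76) on vector arrays. With 0 vector arrays above the level, THBS2 was at least 2.54-fold higher with HIP1 (adjusted p = 3.07e-06). FBLN2, THBS2 and LAMA4 were the 3 called matrix genes that were below the level on every vector array and above it on every HIP1-labelled array. They passed the filter through the HIP1-labelled arrays alone. Their RefSeq promoter windows (GRCh38.p14, same length and motifs) are shown as the sequences ahead of genes that crossed the level. FBLN2 is at chr3:13548875-13549174 on the plus strand (the first of its 2 windows), THBS2 at chr6:169253797-169254096 and LAMA4 at chr6:112254518-112254817, both on the minus strand.
FBLN2: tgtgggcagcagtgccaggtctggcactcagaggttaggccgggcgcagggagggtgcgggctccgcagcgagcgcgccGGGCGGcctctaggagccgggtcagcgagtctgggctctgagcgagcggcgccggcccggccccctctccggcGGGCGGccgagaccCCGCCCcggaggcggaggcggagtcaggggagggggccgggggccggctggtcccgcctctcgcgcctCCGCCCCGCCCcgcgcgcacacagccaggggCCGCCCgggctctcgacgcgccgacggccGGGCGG
THBS2: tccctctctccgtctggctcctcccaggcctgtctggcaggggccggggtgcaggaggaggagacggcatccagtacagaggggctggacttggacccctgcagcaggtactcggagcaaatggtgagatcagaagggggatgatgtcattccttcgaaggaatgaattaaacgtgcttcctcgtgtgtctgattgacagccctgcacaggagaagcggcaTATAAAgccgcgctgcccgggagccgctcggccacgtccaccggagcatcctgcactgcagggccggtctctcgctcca
LAMA4: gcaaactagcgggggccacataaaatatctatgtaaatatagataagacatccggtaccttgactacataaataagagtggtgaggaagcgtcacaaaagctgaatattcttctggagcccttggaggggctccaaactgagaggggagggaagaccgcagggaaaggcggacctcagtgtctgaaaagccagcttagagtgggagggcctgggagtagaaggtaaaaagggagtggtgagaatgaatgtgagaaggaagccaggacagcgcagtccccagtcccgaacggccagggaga
The 3 windows differ in their matches. The FBLN2 window shown has 7 matches to GGGCGG, of which 1 pair overlaps, and 81.0% GC. The second FBLN2 window, not shown, has no match to any of the 4 motifs and 63.3% GC. THBS2 has a single TATAAA that begins at -29 from the start, and LAMA4 has no match to any of the 4 motifs and 51.3% GC, where the median of all windows is 58.7%. Windows were given for 27 of the 34 matrix genes above background, and SPOCK1 was not among them.

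BGN, which encodes biglycan, a small leucine-rich proteoglycan that binds collagen and growth factors, fell with HIP1. Its median was 11.11 (10.98 to 11.46) on HIP1-labelled arrays and 12.56 (11.98 to 12.71) on vector arrays. The groups did not overlap, and the difference was -1.33 ± 0.13 (adjusted p = 5.97e-06), with -1.67, -1.22 and -0.52 in clusters 1 to 3. SPARC, a collagen-binding matricellular protein, had a median of 11.44 (10.60 to 11.66) on HIP1-labelled arrays and of 10.67 (8.11 to 10.97) on vector arrays. SPARC was at 1.02 (adjusted p = 0.0801) on all arrays and at 0.73 without both arrays 6 (adjusted p = 1.22e-05). The abundant FBLN1 had a median of 11.62 (11.22 to 12.13) on HIP1-labelled arrays and of 11.30 (11.01 to 11.58) on vector arrays, and was not called (0.34, adjusted p = 0.112). FBN2, a microfibril protein, had a median of 11.30 (10.95 to 11.72) on HIP1-labelled arrays and of 10.88 (10.56 to 11.29) on vector arrays, also not called (0.41, adjusted p = 0.0748). THBS1 was at 0.47 (adjusted p = 0.26). TNC, an anti-adhesive glycoprotein, gave 0.13 (adjusted p = 0.39) on its representative probe and 0.66 (adjusted p = 0.0369) on a second one, so that its call rests on the choice of probe.

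**Figure D2:**
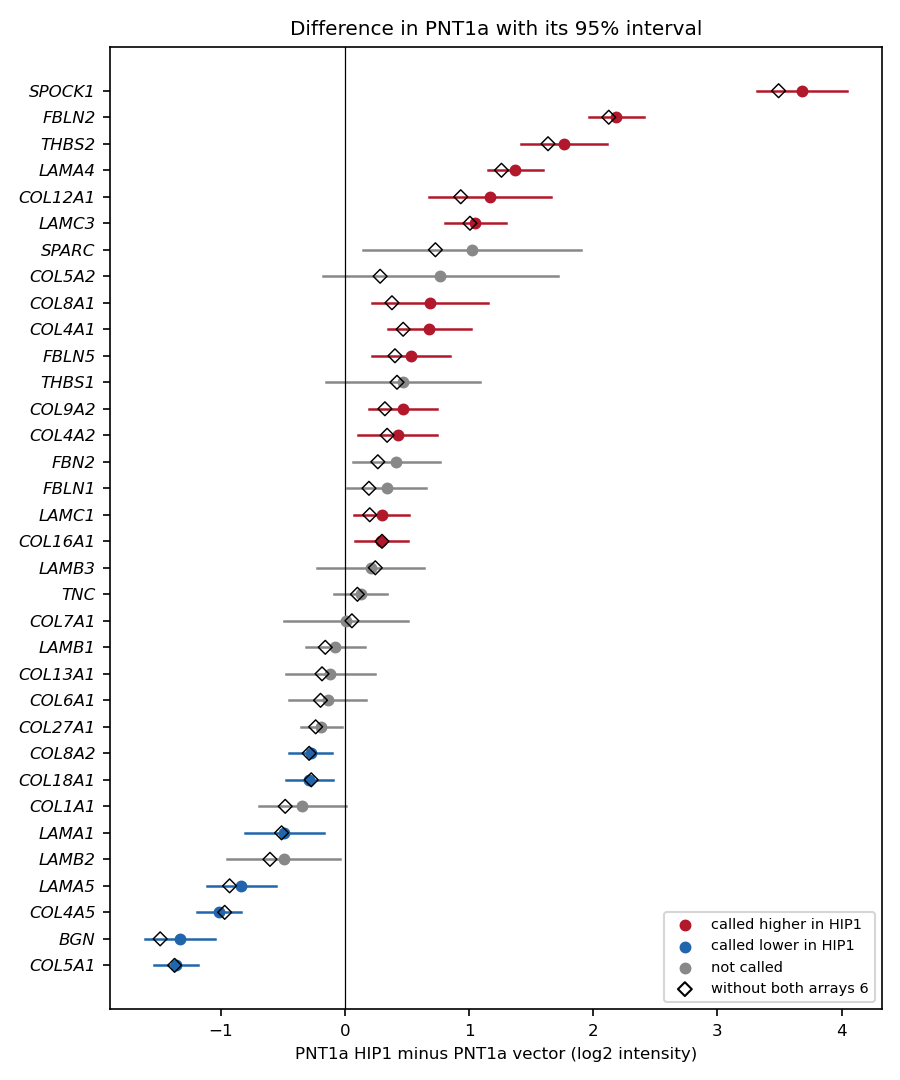
Difference between HIP1-labelled and vector PNT1a arrays (log2, horizontal axis) for the matrix genes above background in PNT1a, 1 row per gene, with 95% intervals from limma as bars. Red and blue points are called higher and lower, grey ones are not called, and open diamonds give the values without both arrays 6. SPOCK1 stands at 3.68 at the upper end, COL5A1 (-1.36) and BGN (-1.33) at the lower, and COL5A2 and SPARC have the widest intervals.

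Genes that modify and secrete collagens were called in both directions in PNT1a. Of 23 genes of collagen modification and secretion above background in PNT1a, 4 were higher and 4 lower, with a median of 0.04. PLOD2 (1.01), a lysyl hydroxylase, P3H2 (1.27), a prolyl 3-hydroxylase, and P4HA1 (0.43), a prolyl 4-hydroxylase, rose. The crosslinking oxidases LOX (at least 1.67-fold lower) and LOXL4 (at least 1.70-fold lower) and the lysyl hydroxylase PLOD3 (-0.54) fell. Of 21 other matrix and basement membrane genes, 8 were higher and 2 lower (median 0.37). They included SVEP1 (1.84), VTN, which encodes vitronectin (1.34, and 0.79 without both arrays 6), EMILIN2 (at least 1.59-fold higher) and AGRN, the heparan sulfate proteoglycan agrin (-0.66). Of 10 collagen and laminin receptors, 6 rose and 2 fell (median 0.38), with the integrin chains ITGA2 (0.80) and ITGB4 (0.62, and 0.37 without both arrays 6) and the syndecan SDC1 (0.67) higher and SDC4 (-0.89) and CD47 (-0.63) lower. These shares stand beside the 27.5% of all probes called in PNT1a. Some listed genes passed the filter through a single group, such as MFAP2, EMILIN2 and SMOC1 through the HIP1-labelled arrays alone. LOXL4 and MFAP4 passed through the vector arrays alone. The counts and medians of their lists thus include genes admitted by the group where they were high.

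Markers of other cell types also differed between the PNT1a groups. Of 10 fibroblast and stromal markers, 5 were above background in PNT1a and 4 fell, namely ACTA2 (-1.28), TAGLN (-1.59), THY1 (-1.03) and VIM (-0.83). The mean level of that list ran from 8.38 to 8.65 on HIP1-labelled arrays and from 8.93 to 9.04 on vector arrays, with no overlap, while FAP, DES, MYH11 and CNN1 were above the level on 0 arrays. Of 7 epithelial markers, 3 were above background in PNT1a: KRT8 (-0.78) and EPCAM (-0.46) fell, and KRT18 was at 0.39 (adjusted p = 0.231), or 0.48 without both arrays 6 (adjusted p = 0.000509). The epithelial list means ran from 7.18 to 7.45 on HIP1-labelled arrays and from 7.23 to 7.46 on vector arrays. All 6 endothelial markers were below the level in PNT1a. Of 7 leukocyte markers CD68 (-0.72) fell and CD14 was above the level but not called, and PTPRC, the defining marker, was at background, with list means of 7.23 to 7.61 on HIP1-labelled and 7.30 to 7.67 on vector arrays. The part of these differences in the matrix results was not tested. The arrays measure RNA in bulk, so that fewer cells of a kind and less RNA per cell cannot be told apart.

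In LNCaP, where 13 matrix genes were above background, 2 differed with HIP1 and both were laminin chains that rose. By probe this was 2 of 14, where 7.32% of all 12014 probes tested were called (3.15% higher, 4.18% lower). LAMA5 had a median of 10.29 (10.18 to 10.42) on HIP1-labelled arrays and of 10.02 (9.91 to 10.10) on vector arrays. The groups did not overlap, and the difference was 0.29 ± 0.06 (adjusted p = 0.00657), a call lost with both lines in 1 fit with a shared spread (adjusted p = 0.154). LAMB2 had a median of 8.15 (8.02 to 8.40) on HIP1-labelled arrays and of 7.97 (7.87 to 8.01) on vector arrays, again without overlap, as in 4.04% of all probes tested. Its difference was 0.23 ± 0.07 (adjusted p = 0.0414), and the call was lost without any 1 of 10 arrays (HIP1-labelled 1, 3, 4, 5 and 6 and vector 1, 2, 4, 5 and 6; adjusted p up to 0.096). The other 11 genes had differences between -0.12 and 0.21, with 95% intervals that together ran from -0.28 to 0.39. Among them LAMC1 had a median of 10.82 (10.63 to 10.91) on HIP1-labelled arrays and of 10.72 (10.66 to 10.84) on vector arrays (0.06, adjusted p = 0.607). COL4A5 had a median of 10.13 (9.92 to 10.19) on HIP1-labelled arrays and of 9.90 (9.87 to 10.03) on vector arrays (0.17, adjusted p = 0.115). COL6A1 was at 0.20 (adjusted p = 0.105). SPOCK1 stayed close to the level in LNCaP, with a median of 7.13 (7.05 to 7.19) on HIP1-labelled arrays and of 6.99 (6.88 to 7.17) on vector arrays (adjusted p = 0.295). Of the collagen modification genes, P4HA1 (0.63) and P4HA2 (0.37), both prolyl 4-hydroxylase subunits, rose in LNCaP and 0 of 16 fell by limma (6 were higher and 0 lower at an unadjusted p under 0.05, which 21.7% of all probes tested met, 10.8% higher and 10.9% lower). Of 6 other matrix genes and 7 receptors 0 were called, with 2 and 1 at an unadjusted p under 0.05. Of the 5 luminal markers, KLK2 (0.45), FOLH1 (0.44) and TMPRSS2 (0.56) were higher with HIP1 in LNCaP (adjusted p from 0.00133 to 0.00502), with list means from 9.31 to 9.59 on HIP1-labelled arrays and from 9.03 to 9.30 on vector arrays. Of the 10 fibroblast and stromal markers VIM (0.31, adjusted p = 0.0357) was higher, with list means from 6.98 to 7.09 on HIP1-labelled arrays and from 6.90 to 7.03 on vector arrays. Of the 7 epithelial markers 4 were above background (adjusted p from 0.121 to 0.917), and of the endothelial markers VWF alone was (adjusted p = 0.989). The leukocyte list had no marker that could be tested in LNCaP. The part of these marker differences in the LNCaP laminin values was not tested.

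**Figure D3:**
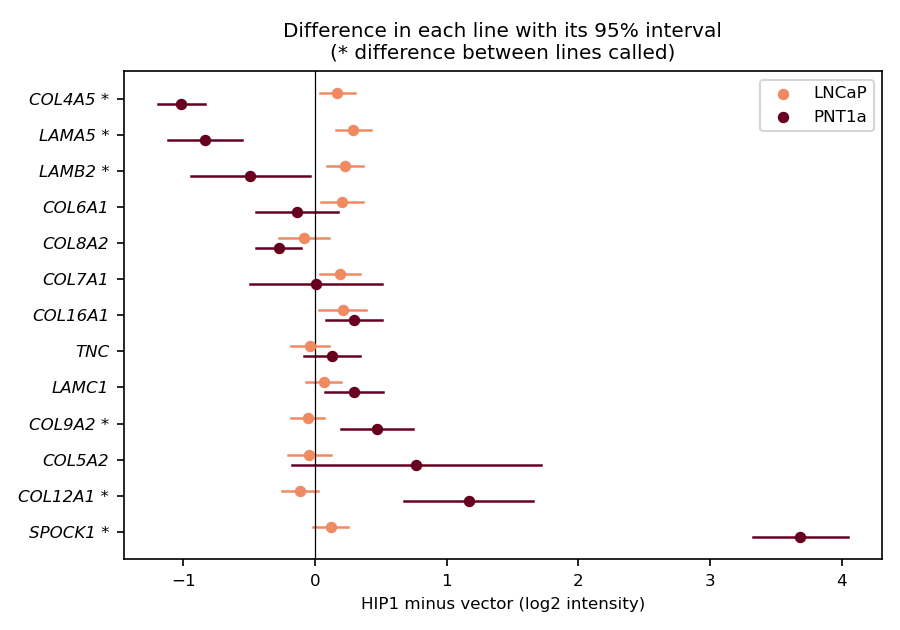
Difference between HIP1-labelled and vector arrays (log2, horizontal axis) in LNCaP and, under it, in PNT1a for the matrix genes above background in both lines, with 95% intervals from limma as bars. LAMA5 lies at 0.29 in LNCaP and at -0.84 in PNT1a, and SPOCK1 is near 0 in LNCaP and at 3.68 in PNT1a.

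The difference between the effects was tested on the 13 matrix probes above background in both lines, and 6 were called (3 each way), where 21.5% of 10299 probes were. It is given as the LNCaP effect minus the PNT1a effect, and both effects enter it, so it is no separate evidence for either. LAMA5 gave 1.13 ± 0.13 (adjusted p = 4.45e-07), with 0.29 in LNCaP and -0.84 in PNT1a, each called with its line fitted alone. LAMB2 gave 0.72 ± 0.20 (adjusted p = 0.00874), with 0.23 in LNCaP and -0.49 in PNT1a. SPOCK1 gave -3.57 ± 0.16 (adjusted p = 1.62e-14) and COL12A1 -1.28 ± 0.21 (adjusted p = 5.04e-05), both close to background in LNCaP. For COL4A5 (1.18, adjusted p = 3.81e-09) and COL9A2 (-0.53, adjusted p = 0.0041) a PNT1a group mean was below the level, so the fitted sizes rest on values at background. The lines also differ in stable against transient transfection, in G418 and in time since transfection, and line cannot be told apart from these.

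With vector alone, 30 of the 34 matrix genes above background in either line differed between LNCaP and PNT1a, and 25 of them were lower in LNCaP. By probe 39 of 43 were called, 7 higher and 32 lower in LNCaP, where 75.8% of all 13936 probes were (39.2% higher, 36.6% lower). The median difference, LNCaP minus PNT1a, was -1.35 over the 43 probes and 0.03 over all probes. Of the 43 probes, 42 had passed the filter in PNT1a and 14 in LNCaP (13 in both), against 12221 and 12014 of all probes. Most matrix probes thus entered through PNT1a alone, so the lower calls and the median in part follow from the filter. In 17 of the 25 lower genes the LNCaP vector mean was below the level, so that the folds are bounds. BGN had a median of 6.73 (6.60 to 6.88) on LNCaP vector arrays and of 12.56 on PNT1a vector arrays, and was at least 45.5-fold lower in LNCaP (adjusted p = 8.66e-27). FBLN1 was at least 20.04-fold lower, FBN2 at least 15.2-fold, SPARC at least 10.1-fold and COL8A1 at least 9.76-fold. COL5A1 was at least 7.997-fold lower, COL4A1 at least 7.91-fold, LAMB3 at least 5.35-fold and THBS1 at least 3.42-fold. COL5A2 was close to the level in LNCaP and 13.0-fold lower there. Its log2 difference of -3.70 ran from -4.19 to -3.56 over arrays left out in turn, and PNT1a vector array 6 was low at 8.30.

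A smaller set was higher in LNCaP. COL4A5 had a median of 9.90 on LNCaP vector arrays and of 7.76 on PNT1a vector arrays, 4.39-fold higher in LNCaP (adjusted p = 4.50e-20), the reverse of COL4A1. A second COL4A5 probe gave at least 1.80-fold (adjusted p = 9.95e-10). LAMC1 was higher by 0.52 ± 0.08 (adjusted p = 2.02e-06), COL9A2 at least 1.21-fold and TNC by 0.26 ± 0.09 (adjusted p = 0.00878) on its representative probe. The second TNC probe went the other way, from 6.40 to 6.56 on LNCaP vector arrays and from 6.85 to 8.35 on PNT1a vector arrays. The direction for TNC therefore rests on the choice of probe. FBLN2 was called higher (0.45) with both group means below the level, so no fold is given. LAMB2 (adjusted p = 0.0549), COL8A2, LAMA4 and THBS2 were not called, the last pair with both vector groups below the level. Of 5 luminal prostate markers with a probe, all 5 passed the filter in LNCaP and 0 in PNT1a.

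**Figure D4:**
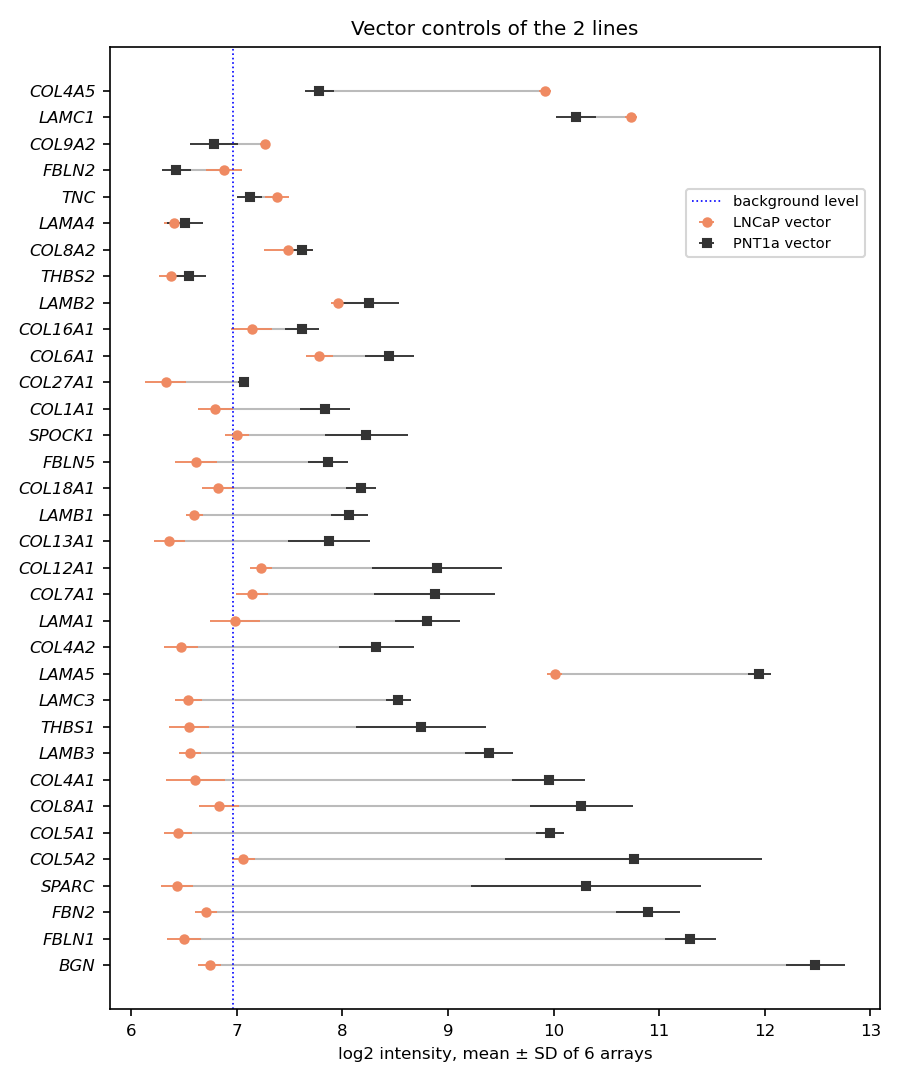
Mean log2 intensity (horizontal axis) on vector arrays of LNCaP and PNT1a for the matrix genes above background in either line, 1 row per gene ordered by difference, with SDs over 6 arrays as bars and the level of 6.97 as a dotted line. Most LNCaP points lie at or under the level, while COL4A5 is higher in LNCaP and BGN has the widest gap.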

How the data were processed

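RNA of 24 cultures, 6 in each of 4 groups, was hybridised to Illumina expression arrays, and groups were taken from the labels. The table used holds log2 intensities for 48803 probes, deposited by the authors as processed values; the sources used here name neither software nor normalization. Its 24 sorted columns differ by at most 0.0517, so the arrays share 1 distribution. Another table gives raw intensity by bead type, per the file headers: 6 columns match labels and served only to learn the scale (percentiles differed by -0.117 to 0.163 log2), 18 columns were not used, and the detection p columns hold 0 filled cells. Each array had 12099 to 12107 probes above the background level (mode 6.48 plus 3 SDs of 0.163). The number of arrays limits the precision.

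Symbols came from the platform annotation (28098 probes with 1 symbol). A gene with several probes is represented by the probe with the highest mean over the 24 arrays. Each line was fitted alone with limma 3.58.1 in R 4.3.3, without covariates, because the median within-group SD is wider in PNT1a (0.207 and 0.186) than in LNCaP (0.120 and 0.126). Contrasts across lines used all 24 arrays with 1 array weight per line (PNT1a 0.638, LNCaP 1.57). P-values are two-sided, adjusted by Benjamini-Hochberg over all probes tested, with calls at 0.05. Where a single group mean lay below the level, each array's value in that group was raised to at least the level and the fold is given as a bound. The adjusted p beside a bound comes from limma on the deposited values, those under the level included. It therefore does not test the bound. The fits were tested on simulated data.

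The matrix genes, the comparison lists and the alternatives were chosen with earlier results of these data known. Named in full were up to 20 called genes per line, up to 6 for the difference between lines and up to 10 each way between vectors; uncalled genes in the top 3 by signal of a line are given as values, and others named uncalled or by second probe were chosen after their values were seen. Alternatives covered the filter, normalization, fit, blocks and left-out arrays. Promoter windows came from RefSeq (56 of 73 genes matched by symbol).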

Additional observations from a re-analysis of the deposited data

Results flagged for a closer look

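Of 94 groups of 6 arrays examined for a single array far from the rest (Dixon's criterion, which chance meets in about 1 group in 20), 12 had one, and 10 of the 12 were PNT1a arrays 6. On HIP1-labelled array 6 the far values were COL7A1 at 9.44, FBLN5 at 9.07, LAMA5 at 11.74, LAMB2 at 8.77 and SPARC at 10.60. On vector array 6 they were COL12A1 at 7.66, COL4A1 at 9.30, COL5A2 at 8.30, COL8A1 at 9.33 and SPARC at 8.11. All 5 vector values lay below the other vector arrays. Of the HIP1-labelled ones SPARC lay below and the other 4 above their group. The remaining ones were COL4A5 at 6.96 on HIP1-labelled array 1 and FBLN2 at 8.23 on HIP1-labelled array 3.

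In 6 matrix genes the LNCaP effect of HIP1 differed from the PNT1a effect by the test of that difference. The LNCaP effect minus the PNT1a effect was -3.57 for SPOCK1, -1.28 for COL12A1, -0.53 for COL9A2, 0.72 for LAMB2, 1.13 for LAMA5 and 1.18 for COL4A5.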

How the results depend on the processing

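No difference of a matrix gene given in full reversed under any alternative. Of the 20 PNT1a calls, 13 held under every alternative that tested them, and 49 of 435 recomputed values lost the call. The losses were all in COL16A1, COL18A1, COL4A2, COL8A1, COL8A2, LAMA1 and LAMC1. Of the 13, FBLN2, THBS2, LAMA4, COL4A5 and COL9A2 failed the filter of all 12 arrays above the level and were not tested there. The 6 calls between lines and the 15 between vectors given in full kept theirs wherever they were tested. Applied to both lines, that filter left out SPOCK1, COL12A1, COL4A5 and COL9A2 between lines. Applied to either line, it left out FBLN2 between vectors. The PNT1a count of 24 called probes ran from 17 to 25 over arrays left out in turn, with 2823 to 4682 of all 12221 probes called. It was 31 with both lines in 1 fit with a shared spread (4615 of all probes). With the residual cluster as a block it was 34 (23 higher, 11 lower), with 5814 of all probes called, against 5516 without both arrays 6. Without both arrays 6, 28 matrix probes were called: COL1A1, LAMB2, SPARC, COL27A1 and a second LAMA1 probe were gained and LAMC1 was lost. In LNCaP the count of 2 fell to 1 with no filter, with array weights and without the smaller residual cluster (HIP1-labelled array 4 and vector arrays 3 and 4), to 0 with the shared spread, where LAMA5 had adjusted p = 0.154, and ran from 1 to 2 over arrays left out. Of all LNCaP probes, 549 were called with no filter, 932 with array weights and 756 without the smaller cluster. With the shared spread 235 were called, and over arrays left out 519 to 1193. With the shared spread, 3 matrix probes in LNCaP had an unadjusted p under 0.05 by limma, as had 12.5% of all probes tested. The count of 6 between lines was 15 with no filter (2798 of all 48803 probes). It was 2 with probes above the level on all arrays of both lines (1841 of 8290, fewer probes tested). Over arrays left out it was 6 to 7 (1873 to 3111 of all probes). Without both PNT1a arrays 6 and the smaller LNCaP cluster it was 8, with 3532 of all probes called. Between vectors the count was 39 to 40 over arrays left out (10220 to 10969 of all 13936 probes). At a level of 2 or 4 SDs above the mode, matrix probes above background were 44 and 38 with HIP1 and 38 and 34 with vector in PNT1a, and 19 and 11 with HIP1 and 18 and 12 with vector in LNCaP.

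Equal replicate numbers did not pair the arrays: deviations of same-numbered arrays correlated by -0.04 to 0.70 in PNT1a and by -0.24 to 0.32 in LNCaP, and an array matched its own number best in 1 of 6 cases in each line. With the replicate block the counts of matrix probes were 27 in PNT1a (18 higher, 9 lower; 4440 of all 12221 probes), 2 in LNCaP (868 of 12014) and 7 between lines (3029 of 10299), and LAMC1 in PNT1a had adjusted p = 0.0573. Signal near background limits the LNCaP values, where 14 of 121 matrix probes could be tested.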

Other observations

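Several matrix genes gave unlike signals on their own probes. COL8A1 had 3 probes above background in PNT1a, with differences of 0.68, 0.64 and 0.14, the last not called (adjusted p = 0.405) and close to the level, with means of 7.05 on HIP1-labelled and 6.91 on vector arrays. FBLN1 had 3, with 0.40, 0.34 and -0.03, none of them called. The third FBLN1 probe also had the widest spread, from 8.22 to 9.50 on HIP1-labelled arrays and from 7.99 to 9.67 on vector arrays. TNC had 2, with 0.13 and 0.66, and the second was above the level on 0 LNCaP arrays while the first was above it on all 12. Which transcripts these probes read was not tested.

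LAMB3, a chain of the laminin that anchors epithelia, was not called in PNT1a, and its difference was 0.60, -0.29 and 0.03 in clusters 1 to 3 of the PNT1a arrays. COL7A1, the anchoring fibril collagen, was at 0.34, -0.37 and -0.24 in the same clusters. For both genes the sign of the difference between HIP1-labelled and vector arrays depended on the cluster.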
